A study of Arabidopsis thaliana with 4 samples.

Results

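The BAG family of Arabidopsis thaliana was followed in heated seedlings of an hsfb1 hsfb2b double mutant and of the wild type. Its members were taken by locus name, as the array probes that carry the loci of BAG1 to BAG7, which gave 7 probes of 37478 on the array, 1 for each of 7 loci among 25665 loci. BAG proteins are co-chaperones: their BAG domain binds the ATPase domain of HSP70 and, as first worked out for animal BAG1, helps HSP70 exchange ADP for ATP and let go of its client. In Arabidopsis, BAG1 to BAG4 carry a ubiquitin-like domain before the BAG domain, as animal BAG1 does, whereas BAG5 to BAG7 carry a calmodulin-binding IQ motif beside it, an arrangement known from plants. BAG6 is known as a heat- and stress-induced gene, BAG5 as a mitochondrial protein and BAG7 as an endoplasmic reticulum protein that binds BiP. BAG1 lies on chromosome 5 (AT5G52060), as do BAG2 (AT5G62100), BAG3 (AT5G07220) and BAG7 (AT5G62390). BAG4 (AT3G51780) lies on chromosome 3, BAG5 (AT1G12060) on chromosome 1 and BAG6 (AT2G46240) on chromosome 2.

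Both groups were whole seedlings of the Columbia-0 ecotype, 5 d old, grown at 23 °C on sugar-containing agar in long days and heated for 30 min by submerging the plates in water at 32 °C. One group was wild type, and the other carried mutations in both HSFB1 and HSFB2B, which encode class B heat shock factors known as transcriptional repressors. The mutant alleles are not described in the sources used here. Many plants of both genotypes shared a plate in each replicate, and each of 4 two-colour oligonucleotide arrays, biological replicates per the labels, held the RNA of both genotypes of 1 replicate. The mutant was in Cy3 (green) on replicates 1 and 3 and in Cy5 (red) on replicates 2 and 4. Unheated seedlings were not analysed here, so a ratio compares the genotypes in heat and does not say how far a gene responded to it. In whole seedlings, fewer cells of a type and less RNA per cell cannot be told apart.

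Across the arrays the median spot signal was 120.5 to 136 in green and 166 to 204 in red, against local backgrounds of 46 to 47 and 56 to 56.5, and no spot was saturated. HSFB1 and HSFB2B, the mutated genes, had log2 ratios of mutant over wild type between -5.84 and -5.72 and between -5.12 and -4.38 on single arrays, so the labels held on every array. Of 19314 genes tested in limma with a gene-wise dye effect, 29.8% passed an adjusted p of 0.05, 16.6% higher and 13.1% lower in the mutant. Of those that passed, 55.8% were higher, against 45.5% with median centring of the arrays. With the deposited series values the share was 79.6% uncentred, where an added constant raises every ratio, and 57.4% once centred. Probes of all 3 shoot markers and all 6 root markers were well above background, as were those of 3 of 4 seed storage markers. Of the 6 root markers 5 were higher in the mutant (median log2 ratio 0.41), and their summed signal ran from 7760 to 9941 units in the mutant and from 6447 to 7880 in the wild type. Of the 3 shoot markers 2 were lower (median -0.24), with sums of 401598 to 691931 against 522162 to 709530. These 2, CAB2 and LHCA3, changed sign with the dye. CAB2 stood at -1.27 and -0.98 on the Cy3 arrays of the mutant and at 0.63 and 0.52 on its Cy5 arrays. LHCA3 stood at -0.75 and -0.92 against 0.41 and 0.30. Without the dye term 0 shoot markers were lower, while 5 root markers stayed higher. Without the pairing by array 0 of 6 root markers passed. Among 3 tested seed markers 1 was higher (median 0.14), with sums of 639 to 1134 against 485 to 1074. Seed markers called higher numbered 0 without the dye term, without the pairing by array and without replicate 3. They also numbered 0 with a normexp offset of 0 and in the processed signals, but 3 without background correction and 2 without replicate 2. The part of these marker differences in the BAG ratios was not tested.

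The family did not move as a block. BAG6 had much less transcript in the double mutant, BAG4 slightly less, BAG1, BAG2 and BAG3 slightly more, and BAG5 lay within 0.06 of 0 on the log2 scale. Of the 6 members tested, 3 passed the threshold as higher and 2 as lower, and 1 did not pass, beside 16.6% of all genes higher and 13.1% lower. The family was picked with these ratios already known, so nothing is read from the count, and member ratios are given with their standard errors and no p-value. The median ratio of the 6 members was 0.10, beside 0.00065 over all genes tested. BAG7 had too few usable ratios for the fit and is described from its single arrays.

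**Figure D1:**
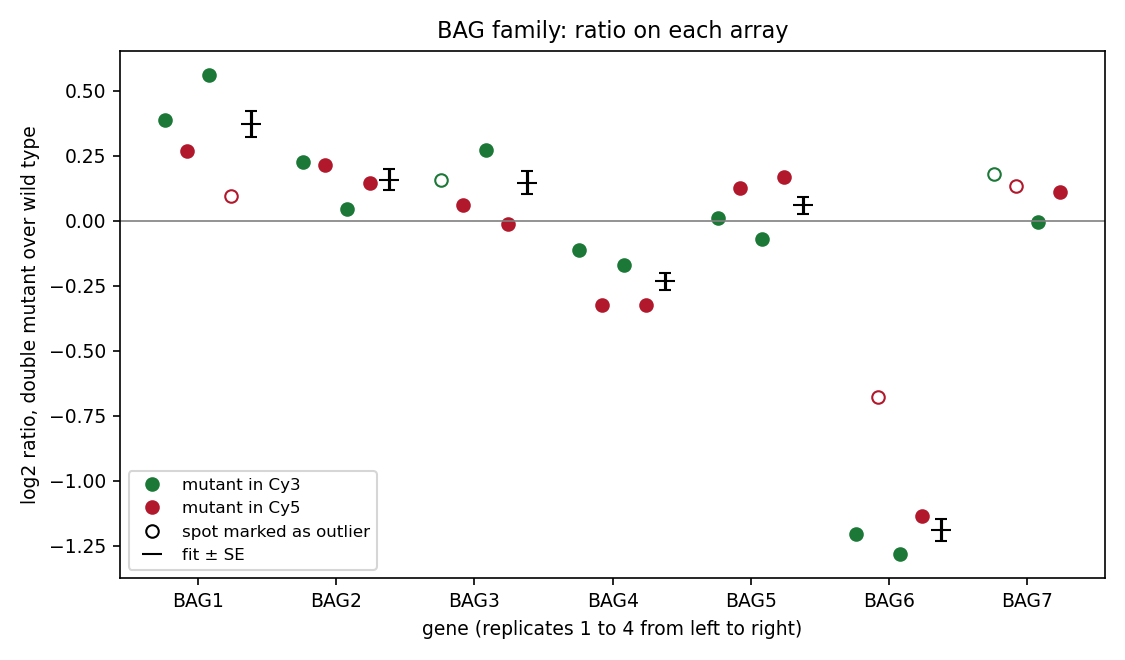
Log2 ratio of double mutant over wild type for each BAG gene on each of the 4 arrays, coloured by the dye of the mutant, with open circles for spots marked as outliers by the scanner software and bars for the fitted ratio ± SE. The 3 unmarked BAG6 points lie between -1.28 and -1.14, while every point of the other 6 genes lies between -0.32 and 0.56.

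BAG6, whose protein binds calmodulin through its IQ motif and which is known to promote programmed cell death and autophagy in stress, was the member with the lowest ratio. Its log2 signal in the wild type was 16.90, 16.73, 16.58 and 16.72 on replicates 1 to 4, and in the double mutant it was 15.69, 16.05, 15.30 and 15.58. Every mutant value was below every wild-type value, with the lowest wild-type value 16.58 and the highest mutant value 16.05. Of the 6 tested members, BAG6 was the 1 whose genotypes did not overlap in signal, beside 3.51% of all genes tested. The array ratios were -1.20, -1.28 and -1.14 on replicates 1, 3 and 4. On replicate 2 the wild-type spot was marked as an outlier for uneven pixels, and the ratio left out there was -0.68. On that array BAG6 stood nearer 0 in the scanner software's processed signals (-0.45) and in the uncentred series values (-0.37 on the log2 scale). The fit over the 3 remaining arrays gave -1.19 ± 0.04 (SE, n = 3 arrays), which is 2.28-fold lower in the mutant. Replicate 4 was the only one of these with the mutant in Cy5, so it weighed as much as replicates 1 and 3 together. The SE rests on limma's variance moderated over all genes, not on the spread of the 3 arrays alone. With marked spots kept, all 4 arrays gave -1.07 ± 0.07, still lower on 4 of 4 arrays. That value moved to -0.96 when replicate 4 was left out as well, a setting chosen after seeing the data. The ratio passed the threshold in all 14 other ways of processing the arrays that could give a value. These ways reuse the same arrays, so the passes are description, not support. Without replicate 1, 2 arrays were left for the dye and genotype terms, so that SE rests on other genes alone. With median centring BAG1, BAG3 and BAG6 had the same SE, 0.10.

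**Figure D2:**
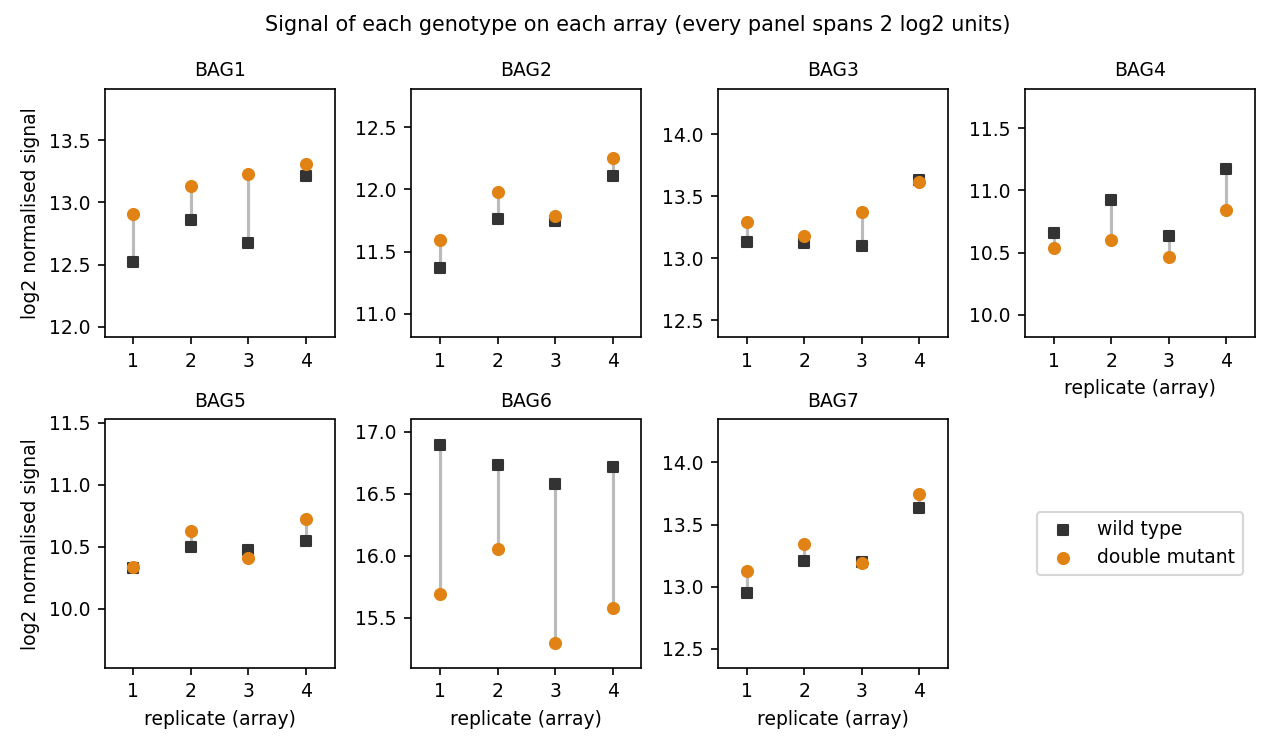
Log2 normalised signal of each BAG gene in the double mutant (circles) and the wild type (squares) on each array, marked spots included, with a line joining the genotypes of 1 array. In the BAG6 panel all squares (16.58 to 16.90) lie above all circles (15.30 to 16.05), and in the other 6 panels the genotypes overlap.

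BAG6 was also read at the bright end of the scanner's range. Both channels of its spot were taken from the low-gain scan, scaled up, on all 4 arrays, as were 2.71% to 3.95% of all spots in at least 1 channel. Its spots were not saturated. Among all genes tested, 5 had a lower ratio than BAG6, HSFB1 and HSFB2B among them. Within the family the distance to the next lowest member, BAG4, was -1.09 on replicate 1, -1.11 on replicate 3 and -0.81 on replicate 4, and -0.36 on replicate 2 with the marked spot.

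BAG4, a ubiquitin-like member whose overexpression is known to raise tolerance to abiotic stress in tobacco, was lower in the mutant on every array by a small amount. Its array ratios were -0.11, -0.32, -0.17 and -0.32 on replicates 1 to 4, and the fit gave -0.23 ± 0.03 (SE, n = 4 arrays), which is 1.17-fold lower. The lower values came with the mutant in Cy5 (mean -0.32) and the values nearer 0 with the mutant in Cy3 (mean -0.14). The log2 signals of the genotypes overlapped, from 10.46 to 10.85 in the mutant and from 10.63 to 11.17 in the wild type.

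BAG1, which is known to act with HSC70 in the turnover of unimported plastid proteins, was the member with the highest ratio. Its array ratios were 0.39, 0.27 and 0.56 on replicates 1 to 3, and the marked spot of replicate 4 stood at 0.09. All of them were above 0, and the fit without the marked spot gave 0.37 ± 0.05 (SE, n = 3 arrays), or 1.29-fold higher, against 0.33 ± 0.05 with marked spots kept. In the fit over 3 arrays, replicate 2, alone with the mutant in Cy5, weighed as much as replicates 1 and 3 together. The signals of the genotypes overlapped, at 12.91 to 13.31 in the mutant and 12.52 to 13.21 in the wild type.

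BAG2 and BAG3, the remaining ubiquitin-like members above 0, had ratios close to each other. BAG2 stood at 0.23, 0.22, 0.046 and 0.15 on replicates 1 to 4, higher on each, with a fit of 0.16 ± 0.04 (SE, n = 4 arrays). BAG3 stood at 0.059, 0.27 and -0.013 on replicates 2 to 4, with a marked value of 0.16 on replicate 1 and a fit of 0.15 ± 0.04 (SE, n = 3 arrays). For BAG3 the ratio was thus above 0 on 2 of 3 arrays, and a single array, replicate 3, lay furthest from 0. That array, alone with the mutant in Cy3, weighed as much in the fit as replicates 2 and 4 together. BAG2 lost its place past the threshold in 6 of 16 other ways of processing and BAG3 in 10 of 14, and with median centring BAG3 turned to -0.035.

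Among the IQ motif members, BAG5 and BAG7 lay near 0 while BAG6 did not. BAG5, the mitochondrial member, had ratios of 0.0097, 0.13, -0.071 and 0.17, with a fit of 0.059 ± 0.03 (SE, n = 4 arrays) that did not pass. BAG7, the endoplasmic reticulum member, had unmarked ratios of -0.0052 on replicate 3 and 0.11 on replicate 4, and marked ratios of 0.18 and 0.13 on replicates 1 and 2. With marked spots kept, its fit was 0.11 ± 0.04 (n = 4 arrays) and did not pass. In the RefSeq gene models of assembly TAIR10.1, BAG7 is also the 1 member whose locus overlaps another, AT5G62380. That neighbour had a ratio of 0.078 ± 0.03.

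All array ratios of a gene lay on 1 side of 0 for 4 of the 6 tested members, BAG1, BAG2, BAG4 and BAG6, beside 35.7% of all genes tested. BAG1 and BAG6 had 3 ratios each, while 18644 of the 19314 genes tested had 4. The shares are thus not alike, and nothing is read from the count. The order by array was not fixed among the small ratios. BAG4 was the lowest of the others on all 4 arrays. BAG1 was the highest on replicates 1 to 3 and BAG5 on replicate 4, where the BAG1 spot was marked. The median of the members other than BAG6 on single arrays was 0.12, 0.13, 0.02 and 0.11 on replicates 1 to 4, beside -0.0019, 0.014, -0.0028 and 0.010 for all genes.

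The dye effect is a separate term of the fit, and the family was not chosen on it. It passed the threshold for 0 of the 6 tested members in limma, beside 18.1% of all genes tested. At an unadjusted p under 0.05 it passed for 3 of 6 (BAG3, BAG4 and BAG5). The share of all genes at that looser level was not taken, so nothing is read from the 3. The dye effect ran from -0.12 for BAG3 to 0.090 for BAG5. The smallest adjusted p among members was 0.088, for BAG4. With median centring in place of loess, the dye effect passed for all 6. At that setting it also passed for most genes of the lists described below. These were 16 of 16 exchange factors and cofactors, 10 of 11 HSP70 genes, 7 of 8 calmodulins and 4 of 7 partners and regulators. The count is thus not particular to the family. The BAG6 ratios averaged -1.24 where Cy3 labelled the mutant and -1.14 on the 1 unmarked array where Cy5 did, or -0.91 over both Cy5 arrays with the marked spot of replicate 2. For BAG5 the orientations lay on opposite sides of 0, at -0.031 and 0.15.

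**Figure D3:**
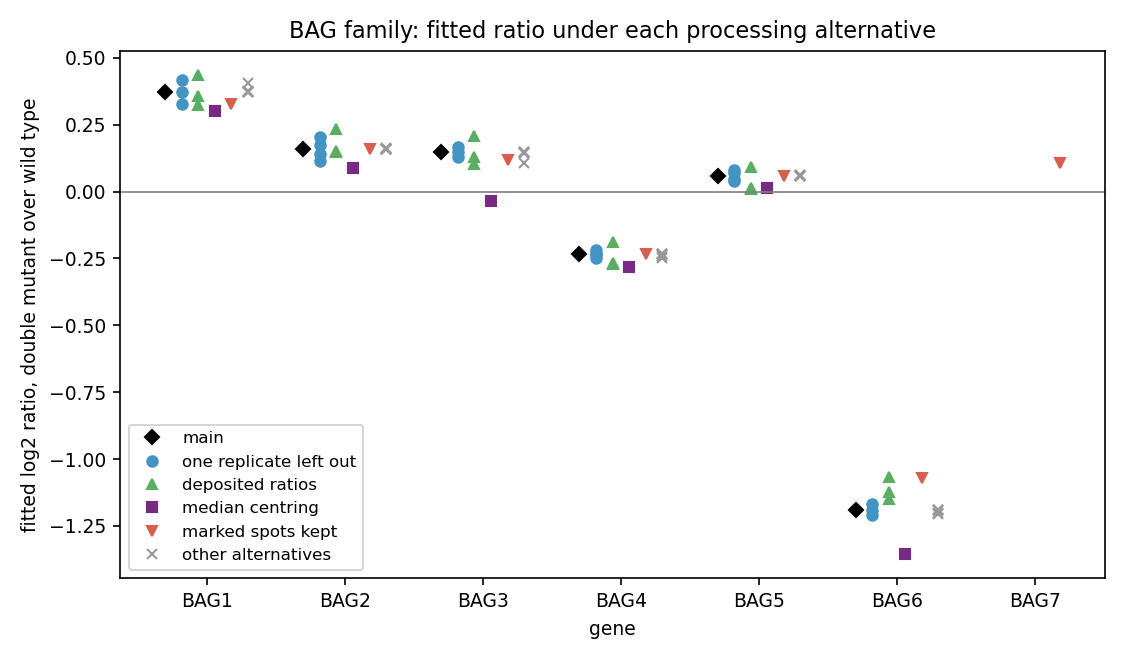
Fitted log2 ratio of each BAG gene as reported (diamonds) and under each other way of processing that could give a value. Settings that both kept marked spots and left out a replicate are not plotted. Among the plotted values BAG6 runs from -1.35 to -1.07 and BAG4 from -0.28 to -0.19. BAG3 runs from -0.035 with median centring to 0.21 in the deposited series values uncentred.

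The genes whose array ratios were closest to those of BAG6 were found by the root mean square difference over the 3 arrays with a BAG6 ratio, among 18763 candidates. They were AT5G10695 (0.095), HSP70B (0.10), AT4G15420 (0.20), AT1G72660 (0.26) and CLPB3 (0.30). The measure goes by the size of the ratios, and 11 genes tested were called at least 2-fold lower. The nearest genes therefore had to be other strongly lower ones, and shared control was not tested. HSP70B encodes a heat-induced cytosolic HSP70, and CLPB3 a plastid disaggregase of the HSP100 class. On replicate 2, where the BAG6 spot was marked, AT5G10695 stood at -1.04, HSP70B at -0.81 and AT1G72660 at -0.97, each lower than the marked BAG6 value of -0.68.

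**Figure D4:**
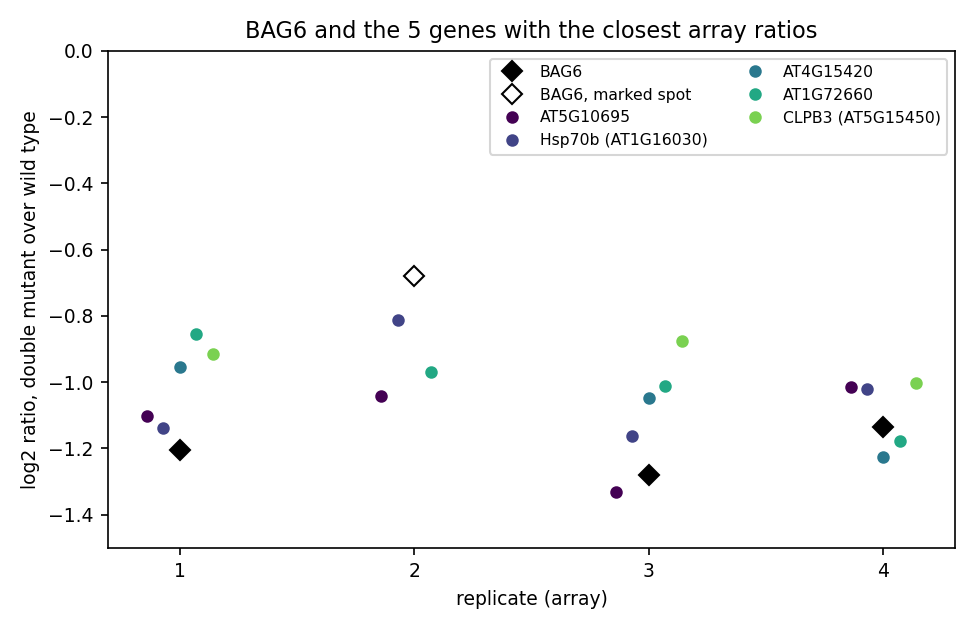
Log2 ratio of double mutant over wild type on each array for BAG6 (diamonds, open for the marked spot) and the 5 genes with the closest ratios (circles). On replicates 1, 3 and 4 the BAG6 values run from -1.28 to -1.14, and on replicate 2 the marked BAG6 value lies above the other genes measured there.

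The HSP70 genes, whose products BAG proteins bind, included genes past the threshold in each direction. Of 13 genes 11 were tested, and 3 were higher, 4 lower and 4 not past the threshold, beside 16.6% of all genes higher and 13.1% lower, with a median log2 ratio of -0.09. With median centring 1 was higher and 6 were lower (median -0.22). The companion lists were chosen with earlier results of these data known, so their adjusted p-values are given as description, not as support. HSP70B had array ratios of -1.14, -0.81, -1.16 and -1.02 and a fit of -1.03 ± 0.04 (SE, n = 4 arrays, limma adjusted p = 2.8e-05). HSP70-4, another cytosolic heat-induced gene, was lower in the fit at -0.44 ± 0.04 (limma adjusted p = 0.00054), but its ratios were -0.997 and -0.978 on the Cy3 arrays of the mutant against 0.23 and -0.0086 on its Cy5 arrays, and the call was lost without the dye term. The mitochondrial MTHSC70-2 was lower in the mutant by 0.41 ± 0.04 on the log2 scale (limma adjusted p = 0.00044), a call lost without the pairing by array. BIP2, which encodes the endoplasmic reticulum HSP70 that BAG7 binds, was higher in the mutant by 0.40 ± 0.04 (limma adjusted p = 0.00073). Its array ratios were 0.42, 0.34, 0.61 and 0.22. The constitutive HSC70-1 had too few unmarked spots, and with marked spots kept it stood at 0.036 ± 0.06. HSP70 genes of 1 compartment can be close copies of each other. Probe sequences were not used here, so how far probes read across copies is not known.

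Of 16 other HSP70 exchange factors and cofactors, 6 were lower and 1 higher in the mutant, while 9 missed the threshold (median -0.07), beside 13.1% of all genes lower and 16.6% higher. FES1A, a cytosolic HSP70 exchange factor needed for acquired thermotolerance, was lower on all 4 arrays at -0.67, -0.52, -0.79 and -0.58, with a fit of -0.64 ± 0.04 (SE, n = 4 arrays, limma adjusted p = 7.0e-05). HOP3, an adaptor between HSP70 and HSP90, was lower in the mutant by 0.63 ± 0.05 (n = 3 arrays, limma adjusted p = 0.00056). HIP1, an HSP70-interacting cofactor, was lower by 0.27 ± 0.05 (limma adjusted p = 0.0049). The HIP1 call was lost in the deposited series values uncentred, without the dye term, without the pairing by array and without replicate 3 (-0.24). AT4G16660 was the 1 gene of this list called higher in the mutant, by 0.39 ± 0.04 (limma adjusted p = 0.00047). CHIP, the ubiquitin ligase that joins HSP70 and BAG proteins to the proteasome, stood at -0.095 ± 0.03 and did not pass (limma adjusted p = 0.061).

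**Figure D5:**
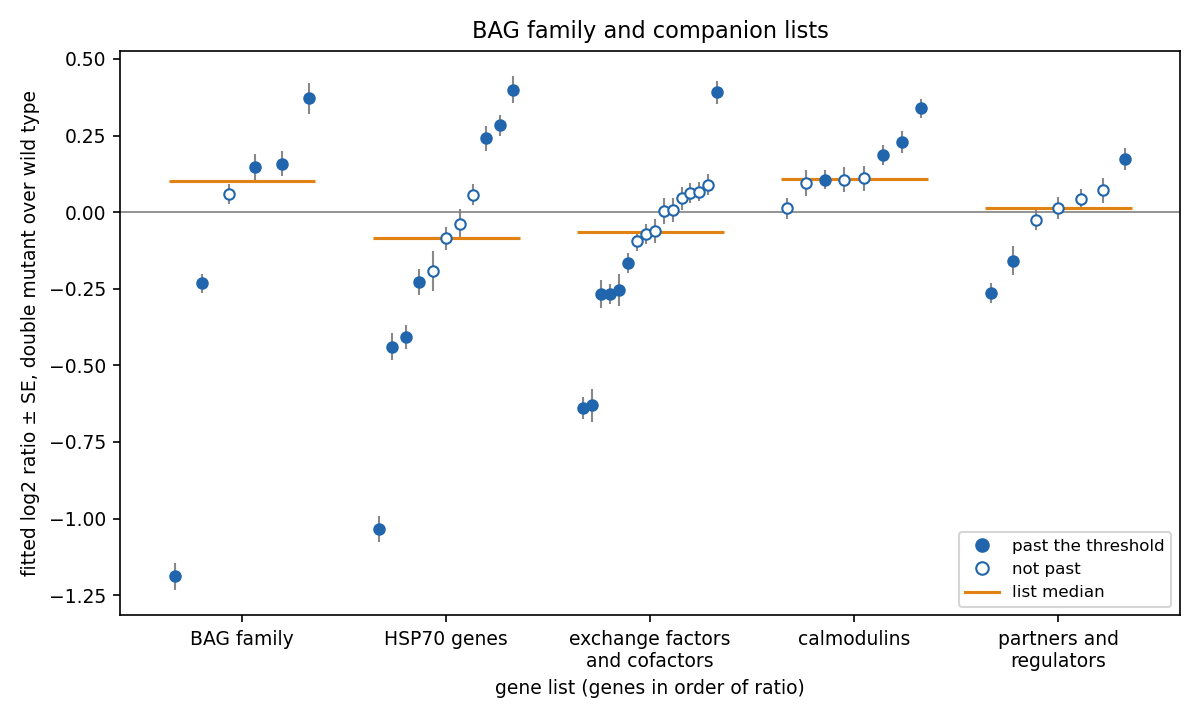
Fitted log2 ratio ± SE of each tested gene, in order within its list, for the BAG family and the 4 companion lists, with filled circles past the threshold and a line at each list's median. BAG6 (-1.19) and HSP70B (-1.03) are the lowest points, and no calmodulin gene lies below 0.

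Calmodulins, the calcium sensors that bind the IQ motif, had 4 of 8 tested genes higher in the mutant, beside 16.6% of all genes, and a median of 0.11. In limma 0 of 8 were lower, also at an unadjusted p under 0.05, and with 13.1% of all genes lower nothing is read from that count. CAM2 was higher in the mutant by 0.34 ± 0.03 (SE, n = 4 arrays, limma adjusted p = 0.00041), with array ratios of 0.26, 0.42, 0.25 and 0.43. CAM5 was higher by 0.23 ± 0.04 (limma adjusted p = 0.0040), CAM7 by 0.19 ± 0.03 (limma adjusted p = 0.0058) and CAM6 by 0.11 ± 0.03 (limma adjusted p = 0.040). The CAM5, CAM6 and CAM7 calls were lost with median centring, where they stood at 0.16, 0.022 and 0.067, and also without the pairing by array. CAM5 stood at 0.14 and 0.015 on the Cy3 arrays of the mutant against 0.34 and 0.42 on its Cy5 arrays. Without the dye term the CAM5 and CAM6 calls were lost. CAM6 lost its call without any 1 of the 4 replicates (0.10 to 0.11). CAM7 lost its call without replicate 3 (0.17). The proteins of these calmodulin genes are near-identical, and how far the probes read across the genes is not known.

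Among 7 named partners and regulators, 1 was higher, 2 were lower and 4 did not pass (median 0.013), beside 16.6% of all genes higher and 13.1% lower. WRKY29, a transcription factor that BAG7 binds in the nucleus after heat, was higher in the mutant by 0.17 ± 0.04 (SE, n = 4 arrays, limma adjusted p = 0.011). Its array ratios were 0.11, 0.17, 0.24 and 0.17, and it passed in 11 of 16 alternatives. Its call was lost on leaving out replicate 3 (0.14) and with median centring (0.13). BZIP28, a membrane-tethered factor of the endoplasmic reticulum stress response, was lower in the mutant by 0.26 ± 0.03 (limma adjusted p = 0.0014). In the deposited series values uncentred it was lower by 0.18, no longer past the threshold. HSFA2, a heat-induced activator, had a fit of -0.16 ± 0.05 (limma adjusted p = 0.038), with ratios of -0.31 and -0.55 on the Cy3 arrays of the mutant and 0.18 and 0.052 on its Cy5 arrays, and it passed in 8 of 16 alternatives. The call was lost without replicate 3 (-0.10) or replicate 4 (-0.13). The 4 genes of the constitutive HSFA1 group, HSFA1A, HSFA1B, HSFA1D and HSFA1E, had ratios between -0.024 and 0.071.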

How the data were processed

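Agilent Feature Extraction 9.1.3.1 produced the scanner files, per the submitters' processing notes. Spot and background medians are deposited intensity values without normalization, per the file headers. Its processed signals are deposited intensity values after background subtraction and dye normalization, and the deposited log10 ratio is red over green of those signals. The deposited series values were found, from the values, to equal the natural log of the processed mutant signal over the wild-type one plus a constant of 0.0563 on every array, to within 0.0002. Medians were corrected with normexp (offset 50) and loess within arrays, with control spots and those marked as outliers at weight 0. Marked spots (190 to 399 per array) were left out. Probes well above background in all 4 channels of a genotype with at least 3 ratios were kept, the brightest per gene, and fitted in limma 3.58.1 (R 4.3.3) with a dye effect and genotype coded by dye. P-values are two-sided and adjusted by Benjamini-Hochberg over all 19314 genes, at 0.05, and the fit was tested on simulated data. The array pairs the genotypes. Standard errors use limma's variance, moderated over all genes. For a gene with 3 ratios, the array alone in its dye orientation weighed as much as the others together. Signals on a log2 scale are normalised values of 1 channel, not scaled between arrays.

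Members and lists were chosen with earlier results of these data known. Adjusted p-values of companion genes therefore describe the fit over all genes and are not tests of genes chosen beforehand. All 7 members are described. The companion lists (HSP70 genes, exchange factors and cofactors, calmodulins, partners and regulators) are counted whole, with up to 4 genes past the threshold named by size of ratio, and HSC70-1, BIP2, HSFA2, WRKY29, CHIP and FES1A named whatever their values. AT5G62380 and the lost calls were added after values were seen. Symbols come from RefSeq's table of assembly TAIR10.1, which matched 19217 tested loci. Sources used here name no genome build for the array design, so no coordinates are printed. Nothing was saturated, and the number of arrays, 4, limits precision.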

Additional observations from a re-analysis of the deposited data

Results flagged for a closer look

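Among 54 sets of 4 array values examined for a single outlying array, 1 stood apart, where chance alone marks about 1 in 20. The log2 signal of BAG3 in the wild type was 13.63 on replicate 4, against 13.10 to 13.13 on the other 3 arrays. The mutant signal of BAG3 on that array was 13.61, also its highest. Signals were not scaled between arrays, and replicate 4 had the highest median spot signals, 136 in green and 204 in red.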

How the results depend on the processing

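The ratio of BAG6 stayed below 0 and past the threshold, and that of BAG4 below 0, in every alternative that could give a value, and BAG1 stayed above 0. The alternatives reuse the same arrays, so this is description, not support. Without replicate 4 BAG6, without replicate 2 BAG1 and without replicate 3 BAG3 had no estimate, because their remaining arrays shared 1 dye orientation, and the separate-channel fit covered only genes with 4 ratios, so BAG2, BAG4 and BAG5 (1 lower, 1 higher). BAG3 turned to -0.035 with median centring. Genes called numbered 5747, against 2547 with median centring, 3618 in the centred series values, 1826 without the dye term and 544 without the replicate block, where array pairing was dropped and of the members only BAG6 passed (1 lower, 0 higher). Leaving out single replicates gave 2251 to 5889 genes (2251 without replicate 3 and 3345 without replicate 1), and with marked spots kept, chosen after seeing the data, 2447 to 5919 (2447 without replicate 3 and 3560 without replicate 1). Of 3 members higher, 1 remained counted with median centring, in the centred series values, without the dye term and in the processed signals, and 1 to 3 with a replicate left out, with 1 to 2 members lower. The dye effect passed for 6 members with median centring, where it also passed for 16 of 16 exchange factors and 10 of 11 HSP70 genes. With a replicate left out it passed for 0 to 1 members.

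For the companion lists, median centring left 1 HSP70 gene, 1 calmodulin and 0 partners higher, with 6 HSP70 genes lower against 4 as reported, and the separate-channel fit had 6 of 9 HSP70 genes lower. The uncentred series values gave 3 exchange factors lower, 2 higher and 0 partners lower. The centred series values gave 2 calmodulins higher, with 0 partners higher and 1 lower. Without the dye term 3 exchange factors were lower, 2 calmodulins higher, 1 partner lower and 0 higher. A normexp offset of 0 and the processed signals each gave 1 partner lower. Without the replicate block 2 HSP70 genes and 2 exchange factors were lower, 1 calmodulin higher, 1 partner lower and 0 higher. With a replicate left out, exchange factors lower ran from 3 to 6, calmodulins higher from 2 to 3, partners lower from 1 to 2 and higher from 0 to 1.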

Other observations

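Genes beside the BAG loci were measured on the same arrays. Of the 28 protein-coding loci that are the nearest 2 on either side of each member in RefSeq order, 17 were tested and 5 passed the threshold in limma, beside 29.8% of all genes. The 4 neighbours of BAG6 had log2 ratios of 0.13, 0.013, -0.21 (with an SE of 0.20) and -0.11, and of these the last, AT2G46260, passed (limma adjusted p = 0.049). The neighbour with the highest ratio was AT5G52050 beside BAG1, at 0.51 ± 0.04 (limma adjusted p = 0.00021). BAG2 and BAG7, on the same chromosome, have 29 protein-coding loci between them. These genes were chosen by position after the values of the members were seen.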
